A study of Mus musculus with 2 samples.

Results

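The TGF-beta and BMP pathway genes were described in sorted cells of mouse small-intestinal organoids, epithelial cultures grown in a gel from isolated crypts. Membership was set by gene symbol alone: every row whose symbol began as a BMP or GDF ligand, a TGF-beta, an inhibin or activin subunit, Nodal or Lefty, one of their receptors, a secreted antagonist (noggin, chordin, gremlin or follistatin types), a Smad or a Smurf was taken. This gave 73 members among the 23793 gene rows listed for each library. The libraries were a GFP+ one and a GFP- one, 1 of each, both from organoids of ChgA-GFP reporter mice, in which chromogranin A, a granule protein of enteroendocrine cells, drives the fluorescent protein. About 1% of the epithelial cells were GFP+, and the GFP- library came from the rest. Both fractions grew in the same medium, which held epidermal growth factor, 10% R-spondin conditioned medium and noggin, itself a BMP antagonist of the family described here. The number and age of the mice are not given in the labels, the reporter reads the activity of a single gene, and crypt organoids are grown from epithelium without the mesenchyme, the main source of BMP ligands in the gut wall.

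Ligands of the TGF-beta superfamily act as dimers that join type I and type II serine/threonine kinase receptors, which then phosphorylate receptor Smads; these bind Smad4 and enter the nucleus. BMP ligands use mainly Smad1, Smad5 and Smad9, and TGF-betas, activins and Nodal use mainly Smad2 and Smad3, while Smad6 and Smad7 and the ubiquitin ligases Smurf1 and Smurf2 damp the signal. In the intestine BMP activity is low at the crypt base and rises toward the villus, where it restrains stem cells, and in enteroendocrine cells BMP signalling is known to shift which hormones are made as cells leave the crypt.

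The start regions of 4 members are shown because they form 2 pairs whose levels lay on opposite sides in these libraries: Tgfbr1 and Tgfbr2, the 2 chains of the TGF-beta receptor, and Smad5 and Smad6, a transducer and an inhibitor of BMP signals. They were chosen after the values were seen. Each is the 300 bases from 250 before to 50 after the annotated start in RefSeq on GRCm38.p6, read 5′ to 3′ on the gene's strand; in Tgfbr1 that start lay 83 bases from the start of the deposited locus and in the other 3 it coincided with it. Capitals mark GTCTAGAC (a palindromic Smad-binding element), GGCGCC (a GC-rich element bound by BMP Smads) and CANNTG (the E-box of basic helix-loop-helix factors).
Tgfbr1, chr4:47352972-47353271, plus strand: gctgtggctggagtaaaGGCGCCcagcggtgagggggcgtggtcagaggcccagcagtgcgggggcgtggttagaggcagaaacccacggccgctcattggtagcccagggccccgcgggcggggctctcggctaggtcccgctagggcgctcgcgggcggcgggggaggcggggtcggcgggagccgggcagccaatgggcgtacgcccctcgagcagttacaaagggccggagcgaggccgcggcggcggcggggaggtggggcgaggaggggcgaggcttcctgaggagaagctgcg
Tgfbr2, chr9:116175314-116175613, minus strand: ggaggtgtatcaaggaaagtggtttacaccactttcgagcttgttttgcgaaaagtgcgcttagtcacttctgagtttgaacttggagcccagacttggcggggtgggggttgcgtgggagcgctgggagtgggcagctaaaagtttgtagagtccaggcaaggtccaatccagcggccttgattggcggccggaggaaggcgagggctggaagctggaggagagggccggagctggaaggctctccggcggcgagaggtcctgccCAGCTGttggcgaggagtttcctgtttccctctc
Smad5, chr13:56702760-56703059, plus strand: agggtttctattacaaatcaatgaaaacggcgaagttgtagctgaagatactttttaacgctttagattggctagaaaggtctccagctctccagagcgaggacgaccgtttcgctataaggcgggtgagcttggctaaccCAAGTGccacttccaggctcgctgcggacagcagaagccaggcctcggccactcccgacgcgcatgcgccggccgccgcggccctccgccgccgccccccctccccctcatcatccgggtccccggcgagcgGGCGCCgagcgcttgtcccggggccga
Smad6, chr9:64022010-64022309, minus strand: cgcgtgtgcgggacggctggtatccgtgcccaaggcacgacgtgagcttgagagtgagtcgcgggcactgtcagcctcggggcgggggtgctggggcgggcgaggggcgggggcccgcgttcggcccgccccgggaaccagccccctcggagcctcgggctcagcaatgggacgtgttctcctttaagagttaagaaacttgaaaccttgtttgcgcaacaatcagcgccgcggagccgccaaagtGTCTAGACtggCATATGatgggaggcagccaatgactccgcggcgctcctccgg

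The Smad6 window held the palindrome GTCTAGAC across its start site, from 4 bases before it. Both strands were searched, and each of these 3 motifs reads the same on either strand. Among all 32851 RefSeq windows, 0.213% held GTCTAGAC, and of the 59 windows found for 49 members that of Smad6 was the only one. The Tgfbr1 and Smad5 windows each held GGCGCC, 233 bases before the start in Tgfbr1 and 24 bases into the transcript in Smad5, an element present in 15 of the 59 member windows and in 11.9% of all windows. The E-box, in 33 of the 59 and in 72.3% of all windows, was marked in Tgfbr2, Smad5 and Smad6. A further motif, TATAAA, which overlaps none of the others, was in none of the 4 windows shown, in 8 of the 59 and in 13.6% of all. These matches describe letters and say nothing of what binds there.

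Levels are given as FPKM, a unit that divides fragment numbers by transcript length and by library size. How the libraries were scaled to each other was not given. Over the estimated symbols FPKM summed to 407210 in GFP+ and 626177 in GFP-, so differences between libraries depend on the scaling. Both sums leave out the symbols of 5 rows that had no estimate in GFP+. A scaling to a common summed FPKM thus rests on the remaining symbols only and may raise GFP+ values too far, by an amount that is not known. With 1 library of each fraction no test was possible, and differences are stated by size, as the log2 difference of FPKM + 1, GFP+ minus GFP-, with 4-fold as the rule for a large one. In bulk RNA fewer cells of a type and less RNA per cell cannot be told apart. The sort matched its label in the enteroendocrine genes with an estimate: *Tph1*, the enzyme that starts serotonin synthesis, was at 1359 FPKM in GFP+ cells against 17.5 FPKM in GFP- cells, and all 6 such markers were at least 4-fold higher in GFP+. *Chga* itself and *Chgb* had no estimate in GFP+. Of the other epithelial types, all 6 Paneth cell markers, 3 of 5 proliferation genes and 2 of 5 stem cell genes passed the 4-fold rule with lower levels in GFP+ cells, as did the enterocyte genes *Fabp1* and *Fabp2* (2 of 7), the goblet gene *Spink4* (1 of 6) and the tuft gene *Rgs13* (1 of 5). The enterocyte genes *Sis* and *Lct* had differences of 1.09 and 1.22. Levels of these markers moved with the fractions, and the part of these cell types in the members' differences was not tested. Of 7 general epithelial genes none passed the 4-fold rule: *Epcam* was at 795 FPKM in GFP+ cells and 991 FPKM in GFP- cells, *Cdh1* and *Vil1* had differences of 0.49 and 0.38, *Krt19* had -0.66, and *Krt8*, *Krt18* and *Cldn7*, at -1.57, -1.79 and -1.03, were past 2-fold on the lower side. Where both libraries had 10 FPKM or more (5563 genes), the median log2 ratio was -0.50, so a gene near that value moved with the library as a whole.

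Of the 73 members, 31 reached 1 FPKM in the higher library and 42 did not, a smaller portion than the 50.4% of all 23532 symbols that did. The 31 split into 8 ligands, 10 receptors and coreceptors, 1 antagonist, 8 intracellular members and 4 other proteins whose symbols fit the rule. At the 4-fold rule 2 of the 31 were higher in GFP+, *Acvrl1* and *Bmp1*, against 7.09% of the 11868 tested symbols, a share near that background. None of the 31 was 4-fold lower, against 4.59% of tested symbols. At 2-fold, 11 of the 31 were higher, against 20.1% of tested symbols, and 3 were lower, against 23.1%. Of the 31, 5 reached 1 FPKM in GFP+ cells only and 3 in GFP- only, which fixes the sign of their difference. Among the 23 members of at least 1 FPKM in both libraries 6 were 2-fold higher, where 14.2% of such symbols were, and 2 were 2-fold lower, where 25.2% were. Of the 31 differences 19 were above 0, against 46.2% over all tested symbols, and 22 were above 0 under either other scaling, against 7127 and 7500 of the 11868. The median difference of the 31 was 0.32, beside -0.12 for all tested symbols. With the median ratio of well-expressed genes set to 0 the same medians were 0.71 and 0.33, and with a common summed FPKM they were 0.77 and 0.43. With the minimum applied after scaling, 1317 of 12157 and 1338 of 11989 symbols were 4-fold higher under them and 184 and 130 lower, in place of 841 and 545 of 11868.

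**Figure D1:**
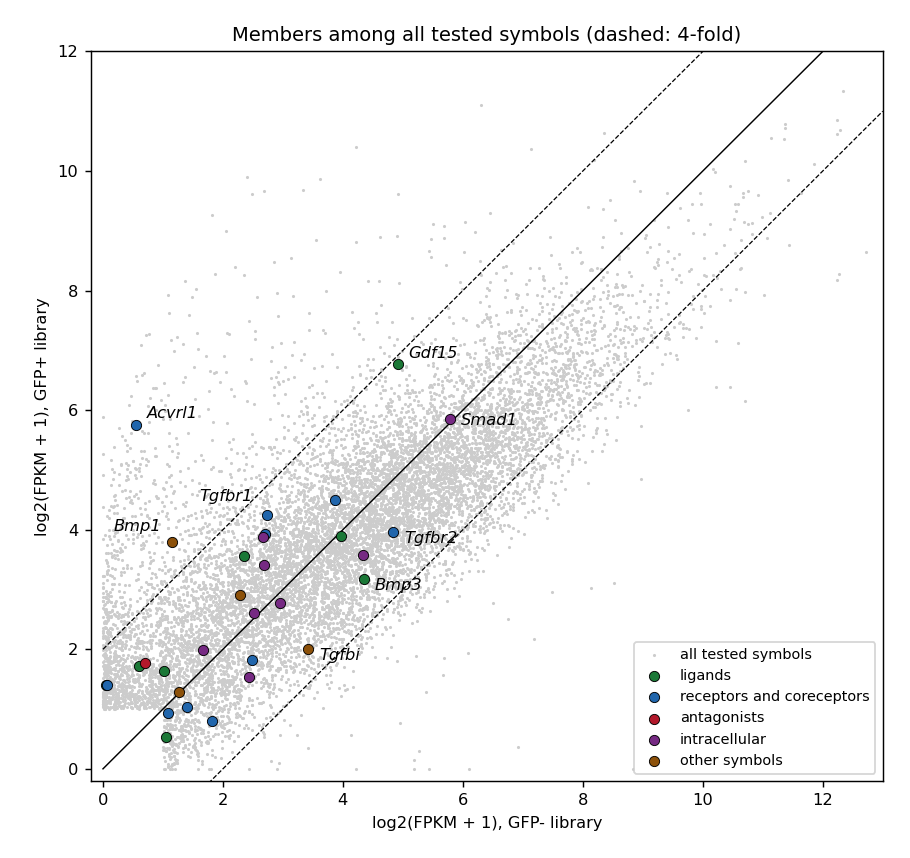
Levels of all 11868 tested symbols (grey) and of the 31 members among them (coloured by role), as log2(FPKM + 1) in the GFP+ library (y axis) against the GFP- library (x axis); the solid line marks equal levels and the dashed lines a 4-fold difference. *Acvrl1*, at 52.6 FPKM in GFP+ cells and 0.461 FPKM in GFP- cells, and *Bmp1* lie above the upper dashed line, and no member lies below the lower one.

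The receptors held the largest difference. *Acvrl1*, also called ALK1, is a type I receptor best known in endothelial cells, where it binds BMP9 and BMP10. It was at 52.6 FPKM in GFP+ cells (deposited upper bound 118) and at 0.461 FPKM in GFP- cells (upper bound 1.30), a ratio of 114; the log2 difference was 5.20. Only 52 of the 11868 tested symbols had a larger difference. Its difference stayed between 3.40 and 6.55 over pseudocounts of 5 and 0.1. Its 11 annotated transcripts run from 312 to 3640 bases, so the GFP- value stands for roughly 8.49 to 99.1 fragments. In GFP+ *Acvrl1* was the most abundant of the 7 type I receptor genes, with 55.4% of their summed FPKM, against 2.01% in GFP-.

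Endothelial markers did not accompany it as a list. Of 6 endothelial marker genes, *Kdr* and *Tek* were listed at 0 in GFP+ cells, and *Cdh5*, *Emcn* and *Tie1* were at 0.00845, 0.0136 and 0.00435 FPKM there. The sixth, *Pecam1*, an adhesion molecule, was at 10.4 FPKM in GFP+ cells and 0.187 FPKM in GFP- cells. The list summed to 10.5 FPKM in GFP+ cells and 0.287 FPKM in GFP- cells, nearly all of the GFP+ sum being *Pecam1*. The coreceptor *Eng*, endoglin, which assists ALK1 in endothelium, was at 0.0943 FPKM in GFP+ cells and 0.0199 FPKM in GFP- cells. Its deposited locus is shared with another row and runs past the annotated gene. The upper bounds of *Eng* were 1.12 FPKM in GFP+ cells and 0.776 FPKM in GFP- cells, so its values are uncertain. The ALK1 ligand genes *Gdf2* and *Bmp10* were both listed at 0 in GFP+ cells, with *Gdf2* at 0.00578 FPKM and *Bmp10* at 0 in GFP-.

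The chains of the TGF-beta receptor lay on opposite sides. *Tgfbr1*, the type I chain, was at 17.9 FPKM in GFP+ cells against 5.63 FPKM in GFP- cells, a difference of 1.51. *Tgfbr2*, the type II chain, was at 14.6 FPKM in GFP+ cells against 27.7 FPKM in GFP- cells, a difference of -0.88 that shrank to -0.41 and -0.29 under the other scalings. Within a library the level of *Tgfbr1* was thus 1.23 times that of *Tgfbr2* in GFP+ and 0.203 times in GFP-, a comparison that no library scaling touches. *Tgfbr3*, betaglycan, which presents TGF-beta2 and binds inhibin, was at 1.63 FPKM in GFP+ cells and 0.0434 FPKM in GFP- cells, where the value stands for about 1.76 to 15.6 fragments.

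The other BMP and activin receptors lay on both sides, none past 4-fold. *Bmpr1a*, the main BMP type I receptor of the gut epithelium, was at 21.7 FPKM in GFP+ cells and 13.6 FPKM in GFP- cells, a difference of 0.64. *Acvr2a*, a type II receptor for activins and BMPs, was at 14.3 FPKM in GFP+ cells and 5.52 FPKM in GFP- cells, a difference of 1.23, while its relative *Acvr2b* was at 2.52 FPKM in GFP+ cells and 4.60 FPKM in GFP- cells, a difference of -0.67 that shrank to -0.29 and -0.19 under the other scalings. The deposited locus of *Acvr2a* is shared with another row and runs past the annotated gene. *Acvr1b*, the activin type I receptor, was at 1.06 FPKM in GFP+ cells and 1.64 FPKM in GFP- cells. Its difference of -0.36 shrank to -0.08 and -0.008 under the other scalings, and its deposited locus is shared with another row. *Acvr1*, a BMP type I receptor, was at 0.920 FPKM in GFP+ cells and 1.13 FPKM in GFP- cells, and its difference of -0.15 turned positive under both other scalings. *Bambi*, a pseudoreceptor without a kinase domain that blocks signalling, was at 0.740 FPKM in GFP+ cells and 2.53 FPKM in GFP- cells, a difference of -1.02 that shrank to -0.79 and -0.67 under the other scalings. The other 4 members of this role stayed below 1 FPKM, the highest being *Acvr1c* at 0.732 FPKM in GFP+ cells and 0.518 FPKM in GFP- cells. The BMP type II receptor *Bmpr2* was among them, at 0.417 FPKM in GFP+ cells and 0.314 FPKM in GFP- cells. Summed, the 7 type I receptor genes came to 94.9 FPKM in GFP+ cells and 23.0 FPKM in GFP- cells, and the 4 type II genes to 31.8 FPKM in GFP+ cells and 38.1 FPKM in GFP- cells.

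**Figure D2:**
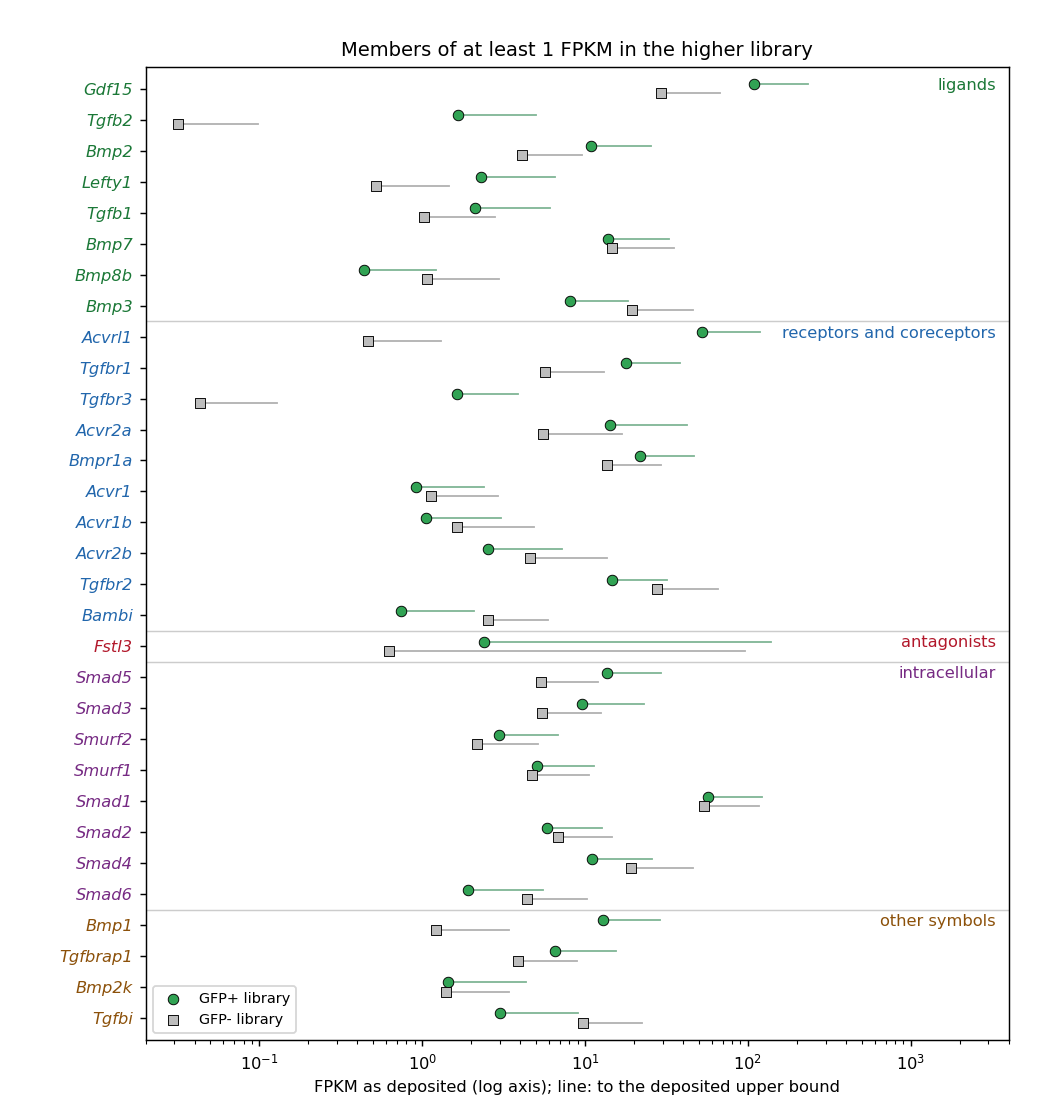
FPKM (log axis) of the 31 members that reached 1 FPKM in the higher library, grouped by role, in the GFP+ library (green circles) and the GFP- library (grey squares); lines reach to the deposited upper confidence bound, and all lower bounds are 0. *Acvrl1* at 52.6 FPKM in GFP+ cells against 0.461 FPKM in GFP- cells is the widest gap past the GFP- bound, while *Tgfbr1* and *Tgfbr2* lie on opposite sides.

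Among the ligands *Gdf15* was the most abundant. It encodes a distant superfamily member, induced by cell stress and acting on appetite through a receptor outside the family. It was at 109 FPKM in GFP+ cells (upper bound 234) and 29.1 FPKM in GFP- cells (upper bound 67.3), a difference of 1.86, which passed 4-fold under both other scalings, at 2.36 and 2.47. *Bmp2*, a classical BMP known from the villus epithelium, was at 10.8 FPKM in GFP+ cells and 4.13 FPKM in GFP- cells, a difference of 1.21. *Bmp7* was at 13.9 FPKM in GFP+ cells and 14.7 FPKM in GFP- cells, and its difference of -0.08 turned positive under both other scalings. *Bmp3*, an atypical BMP that opposes other BMPs through type II receptors, was at 8.03 FPKM in GFP+ cells and 19.4 FPKM in GFP- cells, a difference of -1.17 that shrank to -0.72 and -0.60 under the other scalings. The ligands thus did not lie on a common side.

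The TGF-betas were low in both libraries. *Tgfb1* was at 2.11 FPKM in GFP+ cells and 1.02 FPKM in GFP- cells. *Tgfb2* was at 1.65 FPKM in GFP+ cells and 0.0317 FPKM in GFP- cells, where the value stands for about 0.672 to 9.57 fragments. *Tgfb3* was at 0.0554 FPKM in GFP+ cells and 0.00504 FPKM in GFP- cells. The 3 genes summed to 3.81 FPKM in GFP+ cells and 1.06 FPKM in GFP- cells. All 3 were listed higher in GFP+, but *Tgfb3* stayed below 1 FPKM in both libraries. The GFP- values of *Tgfb2* and *Tgfb3* lay near or below 0.0254 FPKM, which equals 3 fragments of a 2 kb transcript. *Lefty1*, a secreted inhibitor of Nodal, was at 2.29 FPKM in GFP+ cells and 0.518 FPKM in GFP- cells, and *Nodal* itself was listed at 0 in GFP+ cells and at 0.00861 FPKM in GFP- cells. *Bmp8b* was at 0.441 FPKM in GFP+ cells and 1.08 FPKM in GFP- cells.

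Another 23 ligand genes stayed below 1 FPKM in both libraries, 6 of them listed at 0 in both. The highest was *Gdf9*, known from the oocyte, at 0.368 FPKM in GFP+ cells and 0.819 FPKM in GFP- cells. *Bmp4*, which the gut mesenchyme makes, was at 0.600 FPKM in GFP+ cells and 0.00911 FPKM in GFP- cells. *Inhba* and *Inhbb*, the activin subunits, were at 0.0125 and 0.0670 FPKM in GFP+ cells, with *Inhba* listed at 0 and *Inhbb* at 0.0158 FPKM in GFP- cells. Mesenchymal marker genes were also low: the 10 genes summed to 5.07 FPKM in GFP+ cells and 0.258 FPKM in GFP- cells, with 2 of 10 reaching 1 FPKM, *Col1a1* at 1.56 FPKM in GFP+ cells and 0.0106 FPKM in GFP- cells and *Col3a1* at 1.61 FPKM in GFP+ cells against 0.00593 FPKM in GFP- cells. *Pdgfra*, in a row joined with a microRNA gene, was at 0.0175 FPKM in GFP+ cells and 0.00250 FPKM in GFP- cells, and *Thy1* at 0.0321 FPKM in GFP+ cells and 0 in GFP-. The part of such RNA in the low values of *Bmp4*, *Tgfb2*, *Tgfb3* and *Tgfbr3* was not tested.

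Of the 9 members with the symbol of a secreted antagonist, 8 stayed below 1 FPKM in both libraries, the highest being *Chrd*, chordin, at 0.355 FPKM in GFP+ cells and 0.0157 FPKM in GFP- cells. *Nog*, whose protein was added to the medium, was listed at 0 in GFP+ cells and at 0.0190 FPKM in GFP- cells. *Grem1*, a stromal BMP antagonist of the crypt base, was at 0.0687 FPKM in GFP+ cells and listed at 0 in GFP- cells. *Fst*, follistatin, was at 0.0455 FPKM in GFP+ cells and 0.0304 FPKM in GFP- cells. The remaining one was *Fstl3*, a follistatin-like activin and myostatin binder, at 2.39 FPKM in GFP+ cells and 0.626 FPKM in GFP- cells. Its deposited locus is shared by 50 rows and its upper bounds were 139.6 FPKM in GFP+ cells and 95.7 FPKM in GFP- cells, so that value is uncertain.

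Smads of both branches were measured in both libraries, and *Smad1*, of the BMP branch, led them at 56.6 FPKM in GFP+ cells and 54.1 FPKM in GFP- cells. Its difference of 0.06 was the smallest in size among the 8 intracellular members of at least 1 FPKM on the deposited scale. Under the other scalings it was 0.56 and 0.67, and *Smad4*, *Smad2*, *Smad6* and *Smurf1* lay nearer 0. *Smad5* was at 13.7 FPKM in GFP+ cells and 5.32 FPKM in GFP- cells, a difference of 1.22 and the only one of those 8 past 2-fold on the deposited scale. *Smad9* was near 0, at 0.0154 FPKM in GFP+ cells and 0.0369 FPKM in GFP- cells. The 3 BMP Smads summed to 70.3 FPKM in GFP+ cells and 59.5 FPKM in GFP- cells, a difference of 0.24.

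In the TGF-beta branch *Smad3* was at 9.63 FPKM in GFP+ cells and 5.41 FPKM in GFP- cells, a difference of 0.73 that passed 2-fold under both other scalings, at 1.19 and 1.27. *Smad2* was at 5.86 FPKM in GFP+ cells and 6.77 FPKM in GFP- cells, and its difference of -0.18 turned positive under both other scalings. Both together came to 15.5 FPKM in GFP+ cells and 12.2 FPKM in GFP- cells, well below the BMP Smads in either library. *Smad4*, the partner both branches share, was at 11.0 FPKM in GFP+ cells and 19.2 FPKM in GFP- cells, a difference of -0.75 that shrank to -0.29 and -0.17 under the other scalings. The level of *Smad1* was 5.14 times that of *Smad4* in GFP+ and 2.82 times in GFP-.

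The inhibitory Smads were low in both libraries. *Smad6*, which blocks BMP Smads, was at 1.91 FPKM in GFP+ cells and 4.38 FPKM in GFP- cells, a difference of -0.89 that stayed negative under both other scalings, at -0.54 and -0.43. *Smad7* was at 0.869 FPKM in GFP+ cells and 0.832 FPKM in GFP- cells. The ubiquitin ligases differed little on the deposited scale. *Smurf1* was at 5.08 FPKM in GFP+ cells and 4.73 FPKM in GFP- cells, and *Smurf2* at 2.96 FPKM in GFP+ cells and 2.17 FPKM in GFP- cells. Their differences of 0.08 and 0.32 grew under the other scalings, to 0.51 and 0.60 for *Smurf1* and to 0.71 and 0.77 for *Smurf2*.

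Symbols that fit the rule but name other proteins included the second large difference. *Bmp1* is not a BMP but a metalloproteinase that trims procollagen and cleaves chordin. It was at 12.8 FPKM in GFP+ cells (upper bound 29.0) and 1.22 FPKM in GFP- cells (upper bound 3.40), a ratio of 10.5 and a difference of 2.64, which missed the rule at 1.52 with a pseudocount of 5. *Tgfbi*, a matrix protein induced by TGF-beta, was at 3.02 FPKM in GFP+ cells and 9.74 FPKM in GFP- cells, a difference of -1.42 and the lowest of the 31, which was -1.03 and -0.90 under the other scalings. *Tgfbrap1*, an endosomal tethering protein, was at 6.54 FPKM in GFP+ cells and 3.89 FPKM in GFP- cells, and *Bmp2k*, a kinase of endocytosis, at 1.44 FPKM in GFP+ cells and 1.41 FPKM in GFP- cells. The other 5 stayed below 1 FPKM, led by *Fstl1* at 0.710 FPKM in GFP+ cells and 0.118 FPKM in GFP- cells, and 1 of them, *Bambi-ps1*, is a pseudogene.

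**Figure D3:**
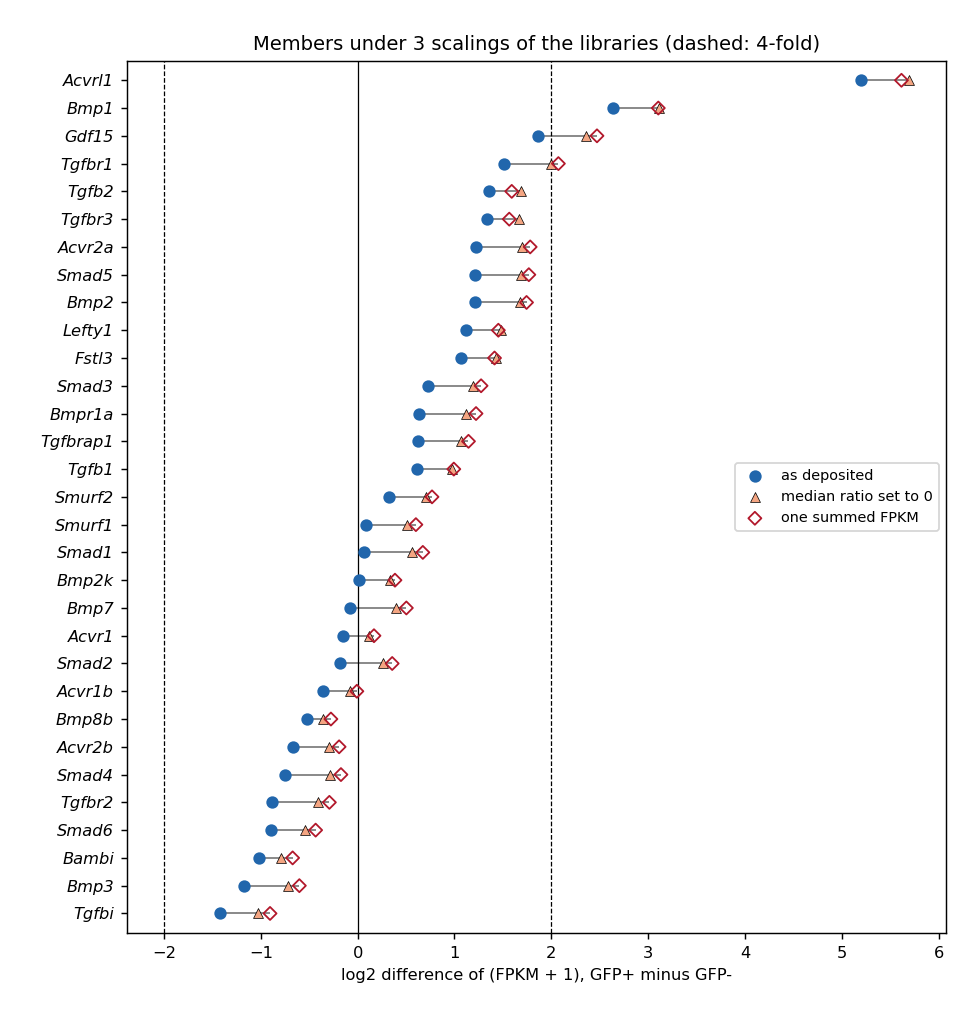
Log2 difference of FPKM + 1 (GFP+ minus GFP-, x axis) of the 31 members, sorted, as deposited (blue circles), with the median ratio of well-expressed genes set to 0 (triangles) and with a common summed FPKM (open diamonds); dashed lines mark 4-fold. *Bmp7*, *Acvr1* and *Smad2* cross 0 under the other scalings, and *Gdf15* and, with a common sum, *Tgfbr1* at 2.07 pass 4-fold.

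A second measure compared each value with the confidence bound deposited for the other library, a rule chosen after the data were seen. The GFP+ value lay above the GFP- upper bound for 9 of the 31 members, against 19.4% of all tested symbols. They were *Acvrl1*, *Bmp1*, *Gdf15*, *Tgfbr1*, *Tgfb2*, *Tgfbr3*, *Smad5*, *Bmp2* and *Lefty1*. The GFP- value lay above the GFP+ upper bound for *Bmp3*, *Bambi* and *Tgfbi*, 3 of the 31, against 18.9%. Lower bounds were 0 in all 23793 rows of GFP+ and in 23792 rows of GFP-, those of all members included. That the intervals of the libraries overlapped for every member was therefore fixed in advance.

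Genes known to respond to BMP signals were examined in a list of 10, of which *Smad6* and *Smad7* are also members. Of the 6 that reached 1 FPKM, 1 was 4-fold higher in GFP+ and none 4-fold lower, with a median difference of 1.21, beside -0.12 for all tested symbols. *Msx1*, a homeobox factor, was at 18.4 FPKM in GFP+ cells and 1.90 FPKM in GFP- cells, a difference of 2.74. Of the Id genes, inhibitors of basic helix-loop-helix factors, the 3 abundant ones were higher in GFP+. *Id1* was at 110.3 FPKM in GFP+ cells against 59.0 FPKM in GFP- cells, *Id2* at 186 FPKM in GFP+ cells against 63.0 FPKM in GFP- cells, and *Id3* at 222 FPKM in GFP+ cells against 76.7 FPKM in GFP- cells. *Id2* and *Id3* passed 4-fold under both other scalings, at 2.04 and 2.02 with the median ratio set to 0. *Atoh8* went the other way, at 0.632 FPKM in GFP+ cells and 5.26 FPKM in GFP- cells, a difference of -1.94, as did *Smad6*. *Id4*, *Msx2* and *Hamp* were near or at 0 in both libraries. The genes of the list thus did not share a direction.

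Of 13 genes known to respond to TGF-beta, 7 reached 1 FPKM and none passed the 4-fold rule, with a median of 0.85. *Skil*, a feedback repressor, was at 9.14 FPKM in GFP+ cells and 2.08 FPKM in GFP- cells, a difference of 1.72 that passed 4-fold under both other scalings, at 2.18 and 2.21. *Junb*, which many other stimuli also induce, was at 473 FPKM in GFP+ cells and 174 FPKM in GFP- cells, a difference of 1.44 that passed 4-fold with a common summed FPKM, at 2.06. The cell cycle inhibitors *Cdkn1a* and *Cdkn2b* were at 172 and 74.1 FPKM in GFP+ cells and at 94.8 and 43.1 FPKM in GFP- cells. *Col1a1*, also among the mesenchymal marker genes above, was at 1.56 FPKM in GFP+ cells and 0.0106 FPKM in GFP- cells, a difference of 1.34. *Tgif1* had -0.99, which shrank to -0.51 and -0.39 under the other scalings. *Klf10* had -0.32, which turned positive under both other scalings. *Ctgf* and *Pmepa1* stayed below 1 FPKM in both libraries.

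Of 16 genes of ligand processing and activation 9 reached 1 FPKM, with a median of -0.16, and the member *Bmp1* was the only one past 4-fold. The ligand-cleaving convertases *Furin*, *Pcsk5* and *Pcsk6* had differences of -0.16, -0.80 and -1.13, the first turning positive under both other scalings. *Itgav*, an integrin chain that releases latent TGF-beta, was at 5.12 FPKM in GFP+ cells and 1.80 FPKM in GFP- cells, while its partner *Itgb6* was at 2.88 FPKM in GFP+ cells and 5.32 FPKM in GFP- cells. The latent TGF-beta binding proteins *Ltbp1*, *Ltbp2* and *Ltbp3* stayed below 1 FPKM.

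Among 19 other ligands, coreceptors and extracellular regulators 6 reached 1 FPKM, with a median of 0.36. *Neo1*, neogenin, a receptor for netrins and for RGM proteins, was at 48.2 FPKM in GFP+ cells and 8.96 FPKM in GFP- cells, a difference of 2.30. Its binding partner *Rgmb*, a BMP coreceptor, was at 52.9 FPKM in GFP+ cells and 49.6 FPKM in GFP- cells. *Nbl1*, a BMP antagonist of the DAN family, was at 10.1 FPKM in GFP+ cells and 1.84 FPKM in GFP- cells, a difference of 1.96 that passed 4-fold under both other scalings. *Twsg1*, which binds BMPs together with chordin, was at 34.6 FPKM in GFP+ cells and 22.7 FPKM in GFP- cells.

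Of 29 adaptors, nuclear partners and repressors 26 reached 1 FPKM, with a median of 0.27, and 1 was 4-fold higher and 1 lower. *Usp9x*, a deubiquitinase of Smad4, was at 17.6 FPKM in GFP+ cells and 2.61 FPKM in GFP- cells, a difference of 2.36. *Tgif2*, a homeobox corepressor of Smads, was at 6.11 FPKM in GFP+ cells and 30.1 FPKM in GFP- cells, a difference of -2.13 that no longer passed the rule under the other scalings, at -1.69 and -1.56. The deposited locus of *Tgif2* is shared with another row. *Hipk2*, a nuclear kinase, was at 13.7 FPKM in GFP+ cells and 5.28 FPKM in GFP- cells. *Fkbp1a*, which holds type I receptors inactive, was abundant in both, at 317 FPKM in GFP+ cells and 339 FPKM in GFP- cells. Over all 5 lists, 50 genes that are not members reached 1 FPKM; 3 of them were 4-fold higher and 1 lower, shares near or below the 7.09% and 4.59% of all tested symbols.

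**Figure D4:**
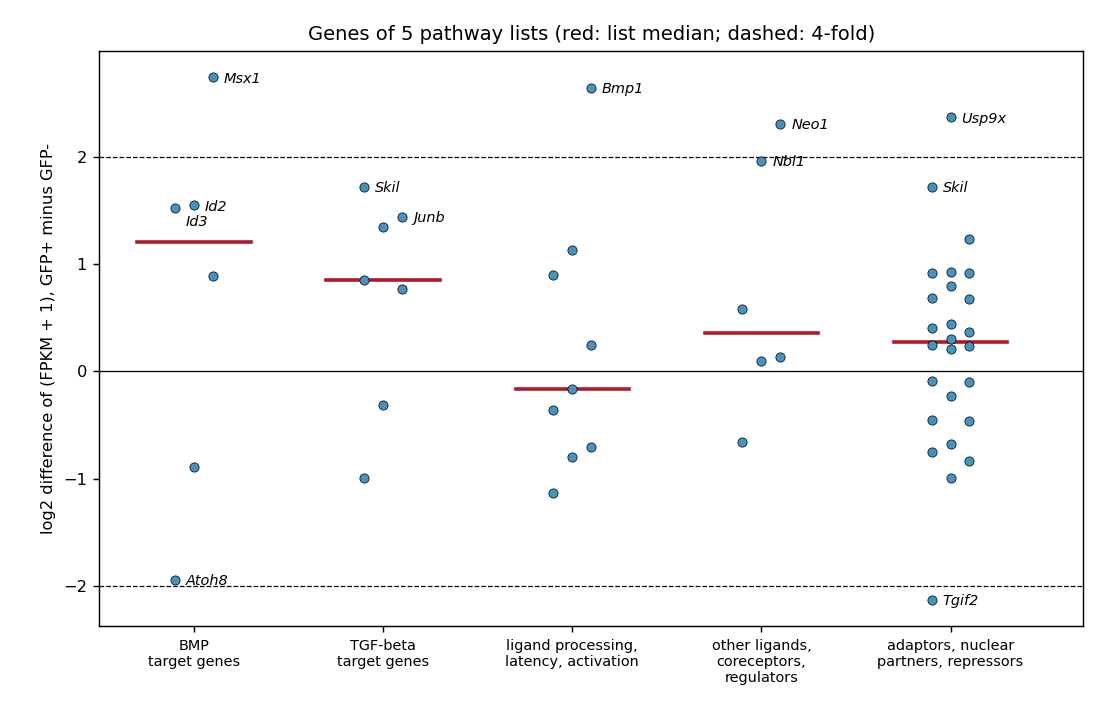
Log2 difference of FPKM + 1 (GFP+ minus GFP-, y axis) of each gene of at least 1 FPKM in 5 pathway lists (points, offset sideways for legibility), with list medians in red and 4-fold as dashed lines; *Bmp1* and *Smad6* are also members. *Msx1*, *Bmp1*, *Neo1* and *Usp9x* lie above the upper dashed line and *Tgif2* at -2.13 below the lower one.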

How the data were processed

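Messenger RNA of 1 GFP+ and 1 GFP- fraction was measured, and the deposited values are FPKM with lower and upper confidence bounds and a status, per the file headers. TopHat2, Cufflinks, Cuffdiff and FastQC on mm10 come from the submitters' processing notes; annotation and library scaling were not given in the sources used here. The 5 rows with status HIDATA in GFP+ were treated as not estimated. FPKM was summed per symbol over the other rows, leaving 23532 symbols, and the 11868 that reached 1 FPKM in either library were compared as log2((FPKM + 1) in GFP+ / (FPKM + 1) in GFP-), a scale that understates changes of low genes. Without replicates there was no test, SD or p-value. All member rows had status OK; 13 share a listed locus with another row. Listed locus starts were shifted to count from 1 and set beside GENCODE M21.

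The files give no depth. Low values of single-transcript genes over 3000 bases fell in steps, and taking the most populated step as 1 fragment gave 59.8 fragments per FPKM and kilobase in GFP+ and 59.0 in GFP-; 59.0% and 75.2% of values below 4.5 such units lay within 0.1 of a whole number, a share inflated because the unit came from the same values. On that scale 3 fragments of a 2 kb transcript, the most a 0 allows, equal 0.0251 FPKM in GFP+ cells and 0.0254 FPKM in GFP- cells. Fragment numbers are approximate, cover counting error only, and PCR copies cannot be told from separate molecules.

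Members and lists were chosen with earlier results of these data known. Every member of at least 1 FPKM was named, of the others the highest in each role and some of known function picked after their values were seen; of each list, the genes past the rule and others with large differences or known roles. Motifs were searched in RefSeq promoter windows (GRCm38.p6); 10 of the 31 members had none. Alternatives were pseudocounts of 0.1 and 5, no minimum or 5 FPKM, both scalings, status, the 2-fold rule and narrower member sets. The size rule was run on simulated data with little noise, where 200 genes with a mean of at least 10 FPKM were changed by more than 4-fold. That run does not show how the rule behaves for low genes or with the spread of these libraries. Python 3.11.15, numpy 2.4.6, pandas 2.3.3 and matplotlib 3.10.9 were used.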

Additional observations from a re-analysis of the deposited data

How the results depend on the processing

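As reported, 2 members were 4-fold higher and 0 lower with a median difference of 0.32, and 3 genes of the pathway lists that are not members were higher and 1 lower. With a pseudocount of 0.1 the members higher were 4 and the list genes 6 higher and 3 lower, and with 5 they were 1, 0 and 0; of all 11868 tested symbols 1524 were higher and 809 lower with 0.1, and 353 and 315 with 5. The median ratio set to 0, with the minimum applied after scaling (34 members), gave a member median of 0.63 and 7 list genes higher and 0 lower; one summed FPKM gave 4 members higher, a median of 0.77, and 8 list genes higher and 0 lower. Without a minimum the median was 0.026, beside 0 for all symbols, and at 5 FPKM it was 0.63, beside -0.27. At 2-fold, 11 members were higher and 3 lower, and 11 and 3 list genes. Without symbols outside the signalling roles, and among members of at least 1 FPKM in both libraries (an alternative chosen after seeing the data), 1 member was higher. That was 1 of 27 and 1 of 23 members, where 841 of 11868 and 436 of 10199 of all symbols were higher. Without rows of a shared locus, also chosen later, the median was 0.62, and 2 list genes were higher and 0 lower. No alternative that kept the 4-fold rule made a member lower by it. Of the named members, *Acvrl1* passed the rule under the 7 alternatives run for single members but is left out by the minimum in both libraries (0.461 FPKM in GFP- cells), where the 1 member higher is *Bmp1*; *Bmp1* missed it with a pseudocount of 5, *Tgfb2* and *Tgfbr3* passed it with 0.1, *Gdf15* under both scalings and *Tgfbr1* with one summed FPKM. No paired analysis was possible because each fraction is 1 library, and no library could be left out. Below about 0.0251 FPKM for a 2 kb transcript, presence cannot be judged at this depth.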

Other observations

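Of the 8 pairs of neighbouring members within 200 kb in the mm10 genome, 3 had both genes above 1 FPKM in the higher library and on opposite sides as deposited. The share of such pairs among all neighbouring genes was not counted, so the number describes these pairs only. *Acvrl1* (chromosome 15, 101128522 to 101145336) and *Acvr1b* (101174125 to 101212601) are 28.8 kb apart with no other row between them. *Acvrl1* was at 52.6 FPKM in GFP+ cells and 0.461 FPKM in GFP- cells, while *Acvr1b* was at 1.06 FPKM in GFP+ cells and 1.64 FPKM in GFP- cells. The *Acvr1b* difference of -0.36 shrank to -0.08 and -0.008 under the other scalings, staying negative but very small. *Tgfbi* and *Smad5* (chromosome 13, 63.7 kb apart) lay on opposite sides, *Tgfbi* at 3.02 FPKM in GFP+ cells and 9.74 FPKM in GFP- cells and *Smad5* at 13.7 FPKM in GFP+ cells and 5.32 FPKM in GFP- cells. *Smad3* and *Smad6* (chromosome 9, 195 kb apart) did so too, *Smad3* at 9.63 FPKM in GFP+ cells and 5.41 FPKM in GFP- cells and *Smad6* at 1.91 FPKM in GFP+ cells and 4.38 FPKM in GFP- cells. Of the Lefty pair on chromosome 1, *Lefty1* was at 2.29 FPKM in GFP+ cells and 0.518 FPKM in GFP- cells, and *Lefty2*, 35.9 kb away, was listed at 0 in both libraries.

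All members together made up 0.102% of the summed FPKM of the estimated symbols in GFP+ cells and 0.0408% in GFP-, of which *Gdf15*, *Smad1* and *Acvrl1* were the 3 most abundant in GFP+. Both sums leave out the symbols of 5 rows without an estimate in GFP+, *Chga* and *Chgb* among them. The GFP+ share is therefore too high by an amount that is not known, and the 2 shares are not directly comparable.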
